A study of Mus musculus with 4 samples.

Results

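A set of 9 secreted antagonists of BMP and activin signaling was followed through the fetal mouse penis, as listed genes looked up by symbol among the measured genes. All 9 of the 9 were found among the 32285 Ensembl genes of the count files. They were *Grem1*, *Nog*, *Chrd*, *Chrdl1*, *Bmper*, *Fst*, *Fstl1*, *Sostdc1* and *Smoc1*. The list groups them by function and was chosen with earlier results of these data known.

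Penises of male embryos were collected at embryonic day 16.5 and profiled with the 10x 3' single-cell kit. The 2 control libraries, called DTA- here, came from embryos without Cre (Nr5a1cre- x DTA f/+), and the 2 ablated libraries, called DTA+, from embryos of the genotype Nr5a1cre+ x DTA f/+. By these genotypes both carried the floxed diphtheria toxin allele at the Rosa locus, although the sample labels give the controls simply as WT, and only in DTA+ could the *Nr5a1-Cre* transgene switch the toxin on, in cells that express or once expressed *Nr5a1*. The transgene also acts in the testes and the adrenal glands of these embryos, and the crosses of the study can bring in a *tdTomato* reporter allele. Transcripts of *tdTomato* were found in the DTA+ libraries only, so an effect of the reporter cannot be told apart from that of the ablation. Whether a library held 1 penis or several was not given in the sources used here, so the p-values measure the spread between these libraries only.

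Bone morphogenetic proteins (BMPs) and activins are secreted dimers of the TGF-beta family that bring type I and type II receptor kinases together and signal through Smad proteins. Gremlin 1, noggin, chordin and the chordin-like proteins bind BMPs outside the cell and keep them from their receptors, whereas follistatin binds activins almost irreversibly and some BMPs more weakly. In the genital tubercle, BMP signals help to set outgrowth, cell death and the patterning of the mesenchyme around the urethra, and antagonists are expressed in restricted territories that limit where the ligands act.

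The libraries held 11343 to 12580 cells and 50779551 to 73577028 UMIs (unique molecular identifiers, each marking 1 captured mRNA molecule), and 31132 of 47040 cells were kept. The first control had the highest median of UMIs per kept cell, 4700 against 4077 in the second control and 3551 and 3560 in the ablated libraries. It also had the lowest level of dissociation stress genes, 6297 CPM (UMIs of the genes scaled to a common UMI total for each library) against 10950 to 13316 in the other 3 libraries. *Nr5a1* itself was close to undetected at this age, with 1 UMI per control and 2 per ablated library, so that it could not serve to check the labels. *tdTomato* gave 0 UMIs in both controls and 3579 and 3140 in the ablated libraries. The genotypes on the sample labels name no reporter allele, but the study's methods list a *tdTomato* allele for the ablated mice. Any 2 libraries shared 31 to 48 cell barcodes, at most 0.423% of the smaller one.

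The 27 clusters were made without the antagonist genes, so that their levels did not shape the groups of cells. Of these, 19 carried enough markers to be named by their resemblance to a known type (periurethra-like and so on), and 8 mesenchymal clusters stayed unnamed and are called here by 2 of their leading genes. Merging clusters of 1 name left 22 populations, and 18 of them, including 11 of mesenchyme, had at least 20 cells in each library and were compared between the genotypes. Levels are CPM, the UMIs of the gene scaled by all UMIs of that population in that library. Log2 fold changes (DTA+ over DTA-), their standard errors (SE) and adjusted p-values come from the quasi-likelihood test of edgeR, adjusted by Benjamini-Hochberg over the genes tested in that population, and a difference was called at an adjusted p under 0.05. With 2 libraries against 2, an exact two-sided permutation test of 1 value cannot go below p = 0.333.

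Free RNA and doublets can set a floor for such levels, and free RNA was not estimated here. In macrophage-like cells, which should make none of these proteins in quantity, *Grem1*, *Chrd*, *Chrdl1* and *Bmper* had no UMI in any library. *Sostdc1* was found there in 4.76 to 8.33% of cells and *Fstl1* in 9.80 to 12.5%. Erythroid-like cells held more, with *Sostdc1* at 539 and 298 CPM in the controls and 113 and 150 CPM in the ablated libraries. That gap passed the test (log2 fold change -1.52, SE 0.25, adjusted p = 0.017) and ran in the same direction as the mesenchyme around them. All 8 mesenchymal marker genes searched were detected in that erythroid-like cluster as well. Without the cells of highest doublet score the log2 fold change was -0.86 (adjusted p = 0.41). Whether free mesenchymal RNA or doublets had a part in it was not tested.

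Over the whole penis, 0 of the 9 antagonists passed the threshold in edgeR's quasi-likelihood test, while 0.344% of the 15976 genes tested did. An unadjusted p under 0.05 was reached by 4 of them and by 2408 of the 15976 genes. DESeq2 and edgeR's likelihood ratio test each called 3, and both also called more of all genes, as counted at the end. Summed over the mesenchymal clusters only, 2 of 9 passed, *Sostdc1* and *Smoc1*, both lower in DTA+, against 1.21% of 15264 genes, 0.616% of them lower. The median log2 fold change of the 9 in the mesenchyme was -0.16, that of all genes tested 0.00.

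**Figure D1:**
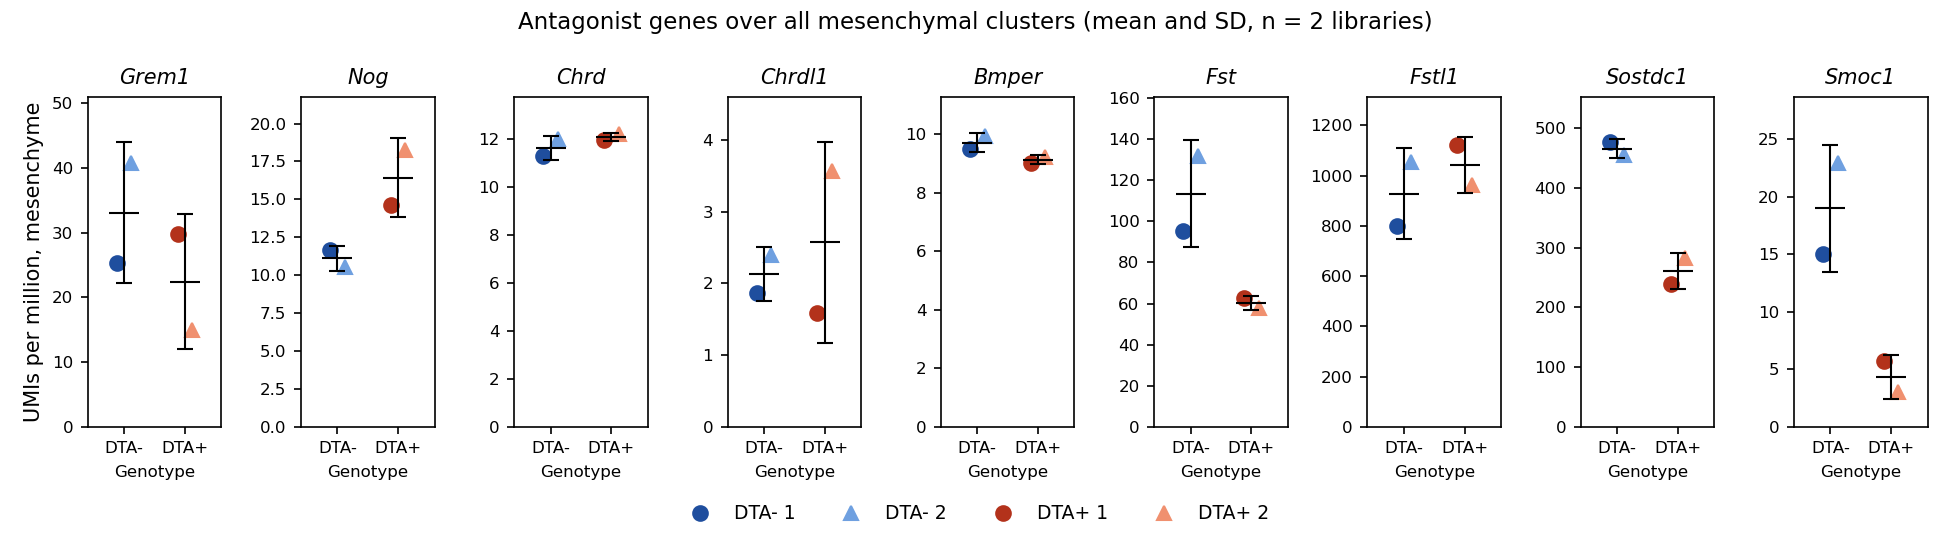
CPM of each antagonist gene summed over all mesenchymal clusters, 1 panel per gene with its own axis from 0. Symbols are the 4 libraries, and black bars give mean and SD (n = 2 libraries per genotype). *Sostdc1*, *Smoc1*, *Fst* and, by little, *Bmper* sit lower in both DTA+ libraries than in both DTA- libraries, *Nog* sits higher, and *Grem1*, *Chrd*, *Chrdl1* and *Fstl1* overlap between the genotypes.

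Of the 162 combinations of a gene and a population, 90 had enough counts to be tested, and 21 of the 90 passed, 6 higher and 15 lower in DTA+. Over all genes in the same 18 populations, 3.24% of 146236 combinations passed, 1.54% higher and 1.70% lower. Because the members were chosen with earlier results of these data known, their higher share is no test of the list. Of the 21, 12 had passed the count filter through both genotypes, 4 through the controls only, 1 through the ablated libraries only and 4 through a mixture. A gene that passes the filter only through the genotype in which it is high had to differ. Without any filter 35 of 147 combinations with a UMI passed. More of all genes also passed without a filter over all cells and over the mesenchyme, as counted at the end, so that count is no test of the list either. In 49 of the 90 combinations the genotypes did not overlap, and over all genes 43.3% of combinations did not.

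The called genes were spread over 11 populations. In the *Thbd*/*Ptgis* mesenchyme 4 of 6 antagonists tested passed, where 12.4% of all genes did. Of those, *Grem1* entered the test through the ablated libraries only and *Smoc1* through the controls only, so that both had to differ. In the corpus cavernosum-like, osteogenic-like and periurethra-like cells it was 3 of 8 each, where 8.95%, 2.11% and 3.13% of all genes passed. In the distal glans-like cells it was 2 of 8 (4.55% of all genes). One antagonist each passed in the *Sostdc1*/*Wnt16* (2.31% of all genes), *Kera*/*Nefl* (0.479%), *Irx1*/*Col7a1* (0.68%) and *Coch*/*Meox2* (9.32%) mesenchyme and in the cycling-like (0.522%) and erythroid-like cells (0.201%). The calls in the *Sostdc1*/*Wnt16* and *Kera*/*Nefl* mesenchyme were of *Smoc1*, which entered those tests and that in osteogenic-like cells through the controls only. In the other 7 populations, with 15 tests between them, 0 passed edgeR's quasi-likelihood test, 0 had an unadjusted p under 0.05 and 0 passed DESeq2, while 0.121% of all genes there did. In the single clusters given by their leading genes, the share of all genes that passed was 2.15% in *Msx2*/*Inhba*, 7.84% in *Sox9*/*Ecrg4*, 4.62% in *Cpm*/*Dlx6os1*, 2.83% in *Sall3*/*Mmp11*, 3.22% in *Mup17*/*Epha3*, 0.614% in *Hist1h1b*/*Cenpf* and 1.65% in *Hand2os1*/*Prss35* cells.

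**Figure D2:**
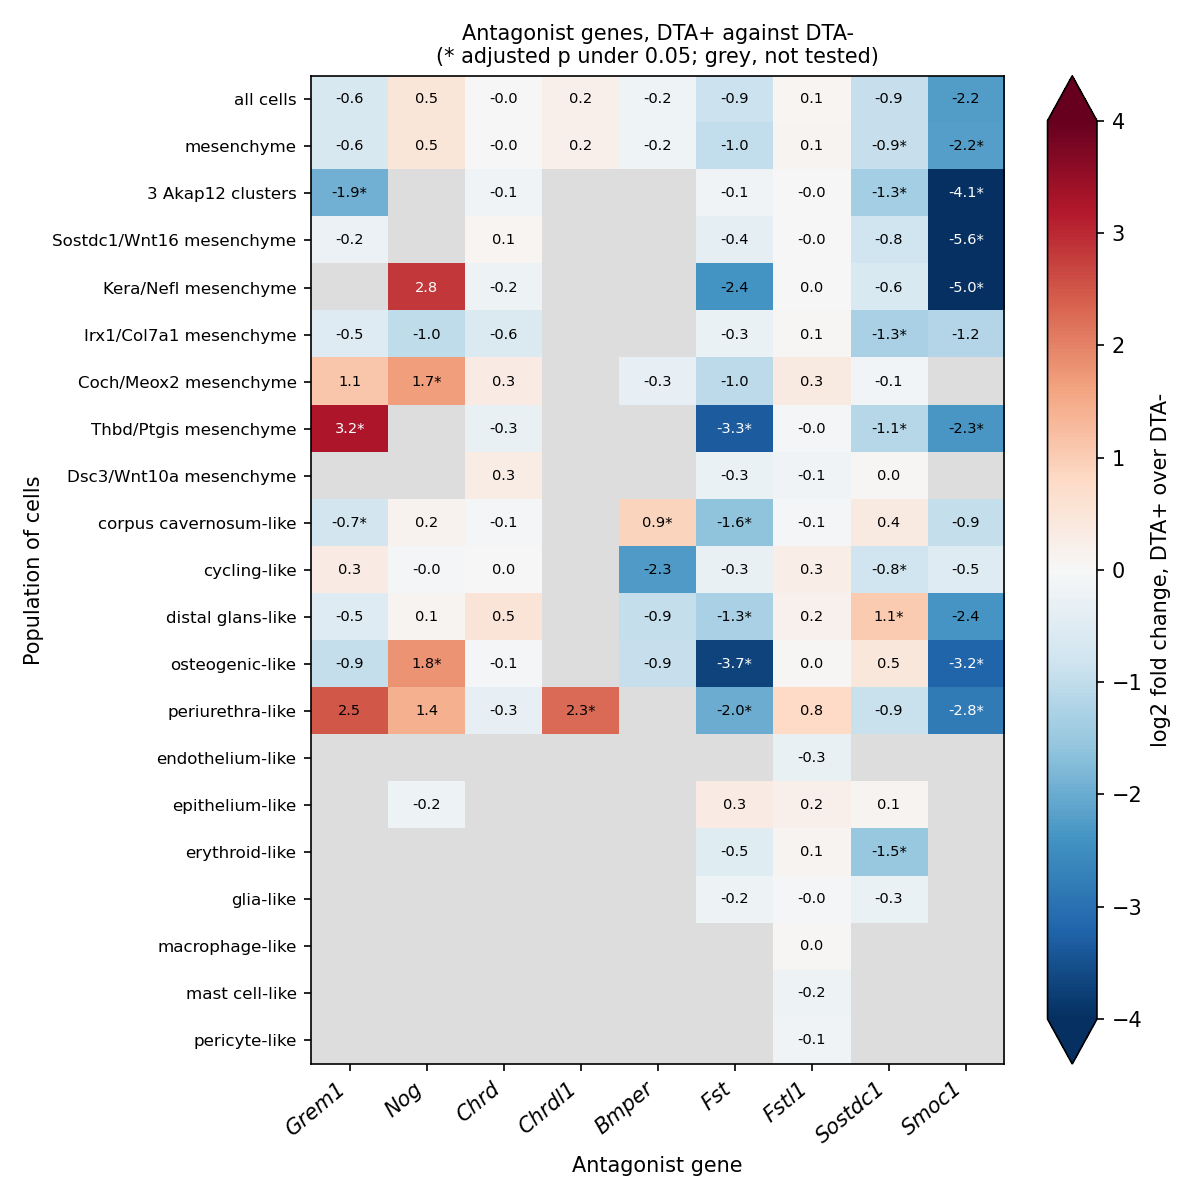
Log2 fold change (DTA+ over DTA-, colour and number) of each antagonist gene in each population tested, with an asterisk where the adjusted p was under 0.05 and grey where a gene was not tested. The *Fst* and *Smoc1* columns are almost wholly blue (lower in DTA+), *Chrd* and *Fstl1* hold no asterisk, and *Grem1*, *Bmper* and *Sostdc1* change sign between populations.

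*Grem1* encodes gremlin 1, which binds BMP2, BMP4 and BMP7 and is known for its loop with sonic hedgehog and FGF in limb outgrowth. It lies on chromosome 2 on the minus strand (chr2:113746164-113758646, GRCm38), and the study uses it as a marker of the cells that the ablation targets, so that its direction in DTA+ is not independent evidence. *Bmper* encodes the crossveinless-2 ortholog, which binds BMPs at the cell surface and can block or promote their signal, and lies on chromosome 9 on the plus strand (chr9:23223076-23485200). In corpus cavernosum-like cells *Grem1* passed as lower and *Bmper* as higher in DTA+. Without a call, their signs also differed in cycling-like cells and the *Coch*/*Meox2* mesenchyme, and both were negative in distal glans-like and osteogenic-like cells. For these 2 genes the 250 bases before their RefSeq starts are shown (GRCm38.p6, chr2:113758649-113758898, minus strand, and chr9:23222826-23223075, plus strand). Whether these sequences had a part in the changes was not tested. Capitals mark GGCGCC, a 6-letter GC-rich motif bound by BMP-activated Smads that reads the same on both strands.
Grem1: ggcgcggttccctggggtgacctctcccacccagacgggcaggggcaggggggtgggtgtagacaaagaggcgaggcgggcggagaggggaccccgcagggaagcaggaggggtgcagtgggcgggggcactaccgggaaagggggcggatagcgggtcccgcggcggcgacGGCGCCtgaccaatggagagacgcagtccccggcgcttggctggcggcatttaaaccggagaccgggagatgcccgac
Bmper: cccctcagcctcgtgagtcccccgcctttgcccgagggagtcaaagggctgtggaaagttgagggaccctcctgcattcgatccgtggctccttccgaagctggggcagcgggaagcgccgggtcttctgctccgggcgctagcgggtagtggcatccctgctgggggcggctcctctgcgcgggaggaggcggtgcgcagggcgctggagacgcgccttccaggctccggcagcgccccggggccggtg
The *Grem1* window holds the motif once, starting 78 bases before the start, and the *Bmper* window does not hold these letters. Both windows are GC-rich, 72.0% and 71.6%, where the median over all promoters was 52.4%. Of the 9 genes, 4 matched the RefSeq promoter table. *Chrd* holds the motif once, 203 bases before its start, and *Fstl1* not at all. Over all 32851 promoter windows of this length, 9.59% hold it.

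In the controls *Grem1* was most abundant in smooth muscle-like cells, a cluster of *Acta2*-, *Myh11*- and *Myocd*-positive cells, at 201 and 196 CPM and in 45.4% and 37.8% of cells. In the ablated libraries the same cells held 38.9 and 45.0 CPM, from 6 and 3 UMIs. Both ablated values were below both controls, but this cluster held 141 and 193 control cells and only 33 and 14 ablated cells, too few in DTA+ 2 to be tested. Of all *Grem1* UMIs, it supplied 20.3% and 13.5% in DTA- and 0.740% and 0.629% in DTA+. In a sum over all cells, fewer smooth muscle-like cells and less *Grem1* per cell cannot be told apart.

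Corpus cavernosum-like cells, the *Sox9*- and *Col2a1*-positive mesenchyme of the erectile body, followed with 89.3 and 116 CPM in the controls and 80.9 and 53.0 CPM in the ablated libraries. Both ablated libraries were lower than both controls, though DTA+ 1 stood only just below DTA- 1. The difference passed the test (log2 fold change -0.74, SE 0.20, adjusted p = 0.025), and without DTA+ 2 it did not (-0.48, adjusted p = 0.39). The *Irx1*/*Col7a1* mesenchyme had similar control levels, 79.9 and 82.1 CPM, and 65.6 and 53.1 CPM in DTA+, which did not pass (log2 fold change -0.50, SE 0.22, adjusted p = 0.69).

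*Grem1* passed as higher in DTA+ in 1 population. The *Thbd*/*Ptgis* mesenchyme held 2.04 and 2.76 CPM in the controls, from 5 UMIs in each, and 23.0 and 23.8 CPM in the ablated libraries, from 30 and 38 UMIs. The genotypes were well apart, at 1% and 1.16% of cells against 4.33% and 6.22%, and the rise passed the test (log2 fold change 3.23, SE 0.41, adjusted p = 1.5e-05). The gene entered that test through the ablated libraries only, so that it had to differ there. In periurethra-like cells, the *Foxf1*- and *Foxf2*-positive mesenchyme next to the urethra, *Grem1* was at 2.73 and 3.59 CPM in the controls and at 33.1 and 6.68 CPM in DTA+. Most of that came from the *Sall3*/*Mmp11* cluster of DTA+ 1 alone, with 60 UMIs and 48.9 CPM against 1.81 CPM in DTA+ 2, and the test was not passed (log2 fold change 2.49, SE 0.73, adjusted p = 0.13).

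The 3 clusters with *Akap12* among their leading genes, summed after it was seen that each held few cells of 1 genotype, gave *Grem1* 39.4 and 75.3 CPM in the controls and 19.2 and 14.3 CPM in DTA+ (log2 fold change -1.92, SE 0.32, adjusted p = 0.011). In this sum 3 of the 6 antagonists tested passed, where 3.89% of all genes did. The makeup of the sum differed between genotypes. The subdermal prepuce-like cluster, led by *Ly6a* and *Igfbp5*, gave 253 and 831 of its 344 and 848 control cells, and the ablated libraries had only 32 and 15 such cells among 842 and 966. Within that cluster *Grem1* was not lower in DTA+, with 47.3 and 74.8 CPM in the controls and 60.6 and 115 CPM, from 11 and 10 UMIs, in DTA+. Without DTA- 2 the log2 fold change of the sum was -1.30.

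**Figure D3:**
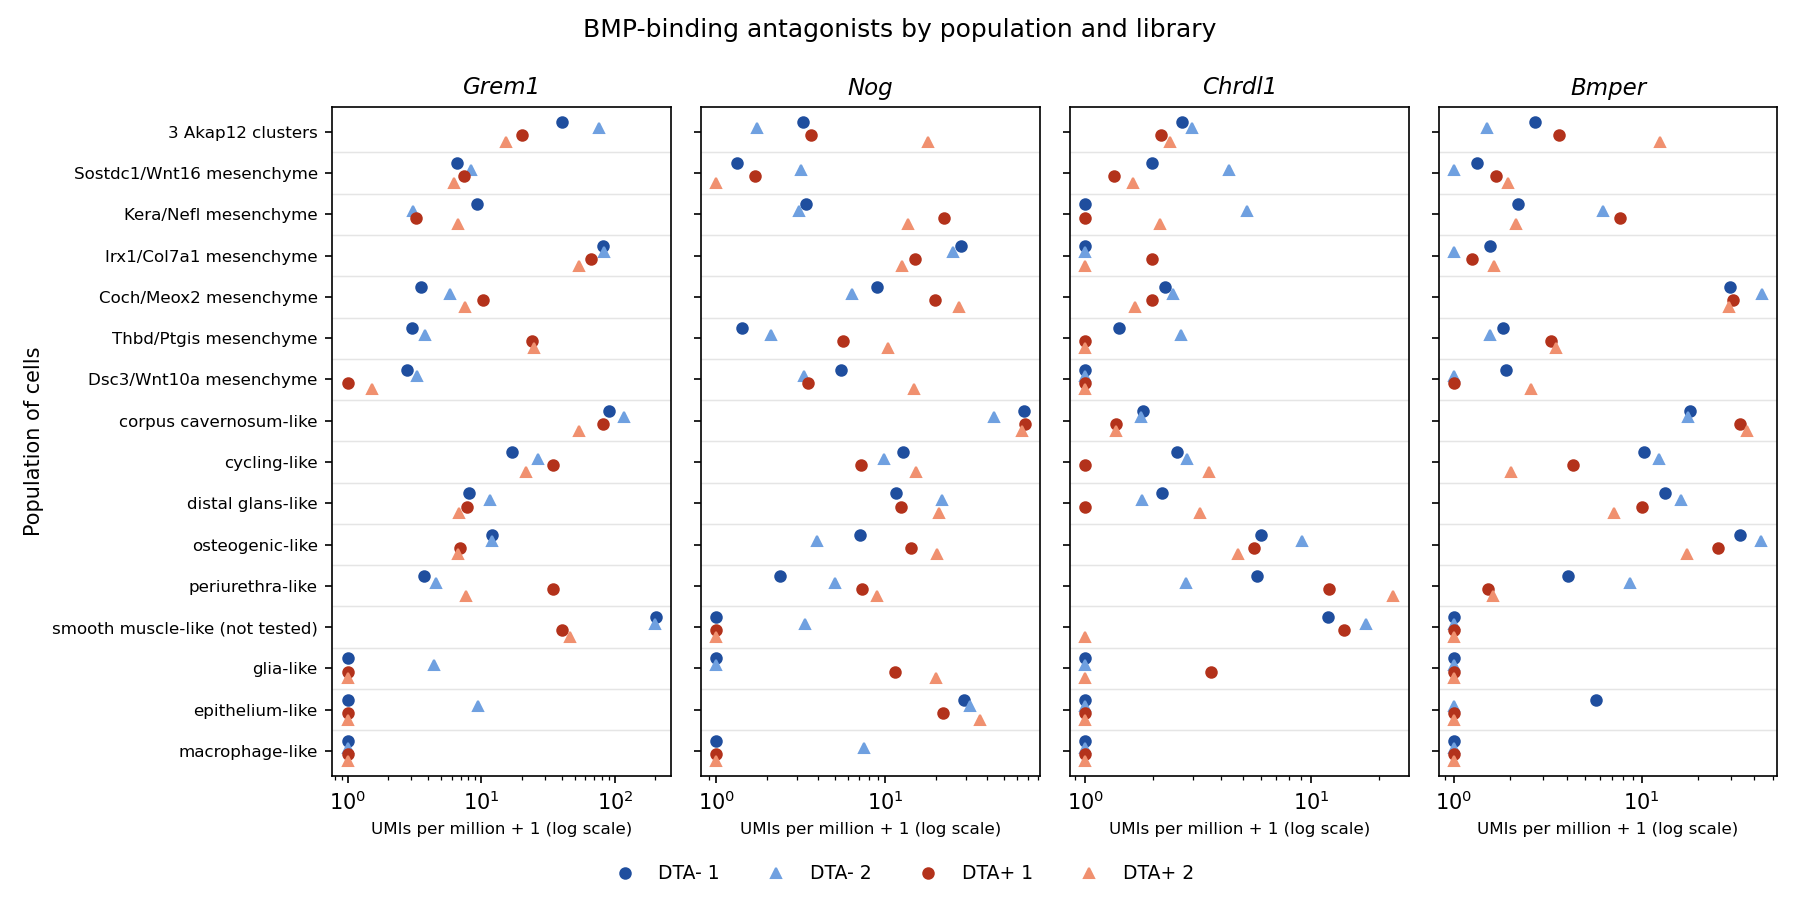
*Grem1*, *Nog*, *Chrdl1* and *Bmper* in CPM plus 1 (log axis) for each library, in the mesenchymal populations tested and in smooth muscle-like, glia-like, epithelium-like and macrophage-like cells. Blue symbols are DTA- and red symbols DTA+ libraries, circles the first and triangles the second of each genotype. *Grem1* in smooth muscle-like cells lies at 201 and 196 in DTA- and at 38.9 and 45.0 in DTA+, whereas in *Thbd*/*Ptgis* mesenchyme the DTA+ libraries lie above.

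*Nog* encodes noggin, a single-exon BMP antagonist with roles in joint, bone and neural development, and lies on chromosome 11 (chr11:89300638-89302332, minus strand). Its level was highest in corpus cavernosum-like cells, 64.9 and 43.1 CPM in the controls and 65.6 and 63.6 CPM in DTA+, where the genotypes differed by less than the spread between the controls (log2 fold change 0.16, SE 0.19, adjusted p = 0.68). These cells supplied 46.4% and 33.6% of its UMIs in the controls. It was present in epithelium-like cells too, at 28.2 and 30.7 CPM in the controls and 20.8 and 35.5 CPM in DTA+. In the *Irx1*/*Col7a1* mesenchyme it stood at 26.8 and 24.3 CPM in the controls and 14.1 and 11.5 CPM in DTA+, which did not pass (log2 fold change -1.01, SE 0.27, adjusted p = 0.14).

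The 2 *Nog* differences that passed were rises in cells where noggin mRNA was sparse. In the *Coch*/*Meox2* mesenchyme it went from 7.97 and 5.30 CPM to 18.5 and 26.3 CPM (log2 fold change 1.68, SE 0.33, adjusted p = 0.0026). In osteogenic-like cells, marked by *Dlx5*, *Dlx6* and *Alpl*, it went from 6.02 and 2.96 CPM, from 12 and 4 UMIs, to 13.2 and 19.1 CPM, from 20 and 61 UMIs (log2 fold change 1.80, SE 0.41, adjusted p = 0.032). In these osteogenic-like cells DTA- 2 was below the count filter and both ablated libraries were above it. The osteogenic-like call was lost in 6 of 14 alternatives, among them without DTA+ 2 (log2 fold change 1.44, adjusted p = 0.48). In its *Cpm*/*Dlx6os1* cluster alone, the levels were 8.07 and 3.05 CPM against 23.8 and 22.3 CPM (log2 fold change 1.82, SE 0.42, adjusted p = 0.0066). *Nog* entered that test through the ablated libraries only, so that it had to differ there and adds no support to the osteogenic-like call.

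*Chrd* encodes chordin, which binds BMPs through cysteine-rich domains and is cleaved by tolloid proteases, and lies on chromosome 16 (chr16:20733127-20742384, plus strand). Its level was alike in the 4 libraries, with 11.3, 12.01, 11.97 and 12.2 CPM over all mesenchymal clusters in the order DTA- 1, DTA- 2, DTA+ 1 and DTA+ 2. The log2 fold change there was -0.02 with an SE of 0.14. It stood at 3.35 to 8.31 CPM in the *Irx1*/*Col7a1* mesenchyme and at 24.2 to 32.5 CPM in the *Dsc3*/*Wnt10a* mesenchyme. Of the 11 populations tested, 0 passed edgeR's quasi-likelihood test, 0 passed DESeq2 and 0 had an unadjusted p under 0.05, and the log2 fold changes ran from -0.58 to 0.52.

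*Chrdl1*, on the X chromosome (chrX:143285674-143394262, minus strand), encodes chordin-like 1 (also known as ventroptin), a BMP antagonist with a place in eye and lung development. It was the sparsest of the list, with 53, 72, 43 and 113 UMIs in whole libraries. Of the populations, leaving single clusters aside, only the periurethra-like cells had enough to be tested. These held 4.78 and 1.80 CPM in the controls, from 14 and 4 UMIs, and 11.03 and 22.2 CPM in DTA+, from 21 and 73 UMIs. DTA- 2 was below the count filter there, and both ablated libraries were above it. Both ablated libraries were higher (log2 fold change 2.26, SE 0.49, adjusted p = 0.041), and the share of all *Chrdl1* UMIs that came from these cells was 26.4% and 5.56% in the controls and 48.8% and 64.6% in DTA+. The call was lost without DTA- 1 (adjusted p = 0.081), DTA- 2 (0.18) or DTA+ 2 (0.099). In the *Sall3*/*Mmp11* cluster of periurethra-like cells the controls held 0 and 1 UMI, and the ablated libraries 14 and 17. The other periurethra-like cluster, *Mup17*/*Epha3*, had 8.98 CPM in DTA- 1, 2.57 in DTA- 2, 10.4 in DTA+ 1 and 34.1 in DTA+ 2. The difference there was not called (log2 fold change 1.98, SE 0.54, adjusted p = 0.061). DTA+ 1 stood just above DTA- 1 in that cluster, and DTA+ 2 supplied 56 UMIs where DTA+ 1 supplied 7. Control levels were higher in smooth muscle-like cells, 10.9 and 16.5 CPM, and in the *Hand2os1*/*Prss35* cluster, 17.8 and 15.8 CPM. That cluster held 7.91 and 10.2 CPM in DTA+, lower in both ablated libraries, which did not pass (log2 fold change -0.84, SE 0.51, adjusted p = 0.58). *Chrdl1* entered that test through the controls only.

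*Bmper* was highest in the *Hand2os1*/*Prss35* cluster, which the marker rule puts among the osteogenic-like cells, with 67.3 and 66.1 CPM in the controls and 46.2 and 39.9 CPM in DTA+ (log2 fold change -0.65, SE 0.26, adjusted p = 0.28). In the other osteogenic-like cluster, *Cpm*/*Dlx6os1*, it was at 20.8 and 16.8 CPM in the controls and at 2.64 and 2.97 CPM in DTA+, a fall that passed the test (log2 fold change -2.70, SE 0.50, adjusted p = 0.00051). The gene entered that test through the controls only, so that it had to differ there. The 2 clusters together did not pass (log2 fold change -0.91, SE 0.26, adjusted p = 0.083).

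Corpus cavernosum-like cells went the other way. There *Bmper* was at 17.0 and 16.8 CPM in the controls and at 32.4 and 35.7 CPM in DTA+, and the rise passed (log2 fold change 0.90, SE 0.23, adjusted p = 0.017). It did not pass without DTA+ 1 (adjusted p = 0.075) or DTA+ 2 (0.21), nor with each cell thinned to 1000 UMIs. In cycling-like cells the levels were 9.33 and 11.5 CPM against 3.30 and 1.01 CPM, and in distal glans-like cells 12.3 and 15.2 CPM against 9.08 and 6.12 CPM. Both were below the controls in both ablated libraries, and neither passed (adjusted p = 0.067 and 0.077). Periurethra-like cells held 26 *Bmper* UMIs in the controls and 3 in DTA+, a ratio per UMI sequenced of 8.73 (95% exact counting interval 2.68 to 45.1). That interval covers counting error only, and the genotypes were not tested within these cells alone. The same counts enter the interaction test given further on.

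*Fst* encodes follistatin, the principal activin-binding protein, and lies on chromosome 13 (chr13:114452290-114458951, minus strand). Among the mesenchymal populations its control level was highest in periurethra-like cells, 427 and 612 CPM, and these cells gave 42.6% and 31.8% of all its UMIs in the controls. In DTA+ the same cells held 119 and 149 CPM. The share of periurethra-like cells with a *Fst* UMI was 66.1% and 68.4% in the controls against 22.7% and 26.8% in DTA+, and 30.9% and 39.2% against 8.90% and 10.7% after each cell was thinned to 1000 UMIs. Positive cells also held fewer copies, 3.17 and 3.596 UMIs each against 1.88 and 2.10. The fall was 3.98-fold (log2 fold change -1.99, SE 0.20, adjusted p = 0.0013), and it was present in both periurethra-like clusters, *Sall3*/*Mmp11* (log2 fold change -2.09) and *Mup17*/*Epha3* (-1.78).

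*Fst* fell in 5 of the 14 populations tested and rose in 0. The largest fall on the log2 scale was in osteogenic-like cells, from 37.1 and 124 CPM to 7.92 and 4.69 CPM (log2 fold change -3.71, SE 0.48, adjusted p = 0.00049). It came to -2.68 without DTA- 2. By cluster the values were -4.23 in *Hand2os1*/*Prss35* and -2.16 in *Cpm*/*Dlx6os1*. In both clusters *Fst* entered the test through the controls only, so that it had to differ there. The *Thbd*/*Ptgis* mesenchyme went from 58.9 and 83.2 CPM to 6.91 and 7.52 CPM (log2 fold change -3.32, SE 0.29, adjusted p = 1.8e-07). Corpus cavernosum-like cells went from 24.8 and 24.4 CPM to 8.38 and 8.83 CPM (log2 fold change -1.62, SE 0.27, adjusted p = 0.00080).

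In distal glans-like cells, marked by *Msx1*, *Msx2* and *Alx4*, *Fst* went from 46.0 and 96.2 CPM to 20.8 and 34.8 CPM (log2 fold change -1.30, SE 0.30, adjusted p = 0.028), which DESeq2 did not call (adjusted p = 0.32). The difference sat in 1 of the 2 clusters. In *Msx2*/*Inhba* cells, which express the activin A subunit gene itself, it went from 42.7 and 116 CPM to 6.10 and 11.8 CPM (log2 fold change -3.02, SE 0.42, adjusted p = 0.0012). In *Tac1*/*Tfap2c* cells the values overlapped, with 49.6 and 71.7 CPM against 44.8 and 63.1 CPM (log2 fold change -0.12, SE 0.21).

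In glia-like cells and in the *Irx1*/*Col7a1* mesenchyme the *Fst* levels overlapped between the genotypes. Glia-like cells, marked by *Sox10* and *Erbb3*, had the highest level of any population, 763 and 850 CPM in the controls and 889 and 534 CPM in DTA+ (log2 fold change -0.22, SE 0.22, adjusted p = 0.96). The *Irx1*/*Col7a1* mesenchyme held 122 and 151 CPM against 152 and 83.2 CPM, and the 3 *Akap12* clusters together 131 and 128 CPM against 115 and 134 CPM. Over all mesenchyme *Fst* was at 95.2 and 132 CPM in the controls and at 62.8 and 57.9 CPM in DTA+ (log2 fold change -0.98, SE 0.17, adjusted p = 0.053).

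*Fstl1* encodes follistatin-like 1, a glycoprotein of mesenchyme that binds BMP4 and is needed in lung and skeletal development, and lies on chromosome 16 (chr16:37776873-37836514, plus strand). It was found in 86.8 to 90.1% of mesenchymal cells, at 801 and 1056 CPM in the controls and 1121 and 962 CPM in DTA+, and the genotypes overlapped. Of the 18 populations tested 0 passed edgeR's quasi-likelihood test, and DESeq2 called 1. That 1 was the periurethra-like population, at 896 and 1038 CPM in the controls and 2113 and 1392 CPM in DTA+ (log2 fold change 0.81, SE 0.19, adjusted p = 0.062 with edgeR). In its *Mup17*/*Epha3* cluster the rise passed, from 697 and 722 CPM to 1304 and 1010 CPM (log2 fold change 0.65, SE 0.16, adjusted p = 0.034).

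*Sostdc1*, on chromosome 12 (chr12:36314139-36318452, plus strand), encodes a sclerostin-like protein (ectodin, also called Wise) that binds BMPs and also modulates Wnt signaling through LRP coreceptors, best known from tooth and hair placodes. It led the largest unnamed cluster by fold, although it was not among the genes used for clustering. This *Sostdc1*/*Wnt16* mesenchyme gave 56.9% and 56.5% of its UMIs in the controls and 48.3% and 56.2% in DTA+. Its level there was 2615 and 1921 CPM in the controls and 1112 and 1601 CPM in DTA+, lower in both but short of the threshold (log2 fold change -0.80, SE 0.19, adjusted p = 0.053).

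Over all mesenchyme *Sostdc1* fell from 477 and 456 CPM to 239 and 282 CPM (log2 fold change -0.91, SE 0.12, adjusted p = 0.026), a call lost without DTA- 1 (adjusted p = 0.067) or DTA- 2 (0.065). Falls passed in the *Irx1*/*Col7a1* mesenchyme, from 311 and 318 CPM to 107 and 164 CPM (log2 fold change -1.30, SE 0.21, adjusted p = 0.012), and in the *Thbd*/*Ptgis* mesenchyme, from 234 and 163 CPM to 92.1 and 95.9 CPM (log2 fold change -1.13, SE 0.19, adjusted p = 0.00030). The first of these was lost without DTA+ 1 (adjusted p = 0.14). Cycling-like cells went from 315 and 349 CPM to 217 and 177 CPM (log2 fold change -0.79, SE 0.15, adjusted p = 0.039), lost without DTA+ 2 (adjusted p = 0.23) and in 8 of 16 alternatives in all. Their makeup differed between libraries, since the *Hist1h1b*/*Cenpf* cluster, in which the gene was more abundant, gave 284 of 437 cycling-like cells in DTA+ 1 and 148 of 499 in DTA- 1. Within that cluster the levels were 642 and 660 CPM against 269 and 285 CPM (log2 fold change -1.27, SE 0.15, adjusted p = 0.0029).

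In distal glans-like cells *Sostdc1* was instead higher in DTA+, at 98.4 and 82.9 CPM against 54.7 and 26.1 CPM in the controls (log2 fold change 1.05, SE 0.25, adjusted p = 0.030). The value without DTA- 1 was 1.74, and DESeq2 did not call it (adjusted p = 0.40). These levels are above the 12.7 to 21.9 CPM of macrophage-like cells and below the 113 to 539 CPM of erythroid-like cells. Epithelium-like cells held 354 and 324 CPM in the controls and 416 and 346 CPM in DTA+, with no difference beyond the spread (log2 fold change 0.10, SE 0.25).

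*Smoc1* encodes a matricellular protein of the SPARC family that opposes BMP signaling and is needed in limb and eye development, and lies on chromosome 12 (chr12:81026808-81186414, plus strand). It fell in 5 of the 9 populations tested, and its fold change was negative in all 9. In 4 of the 5, all but the periurethra-like cells, it entered the test through the controls only, so that it had to differ there. The same held for distal glans-like cells, which were not called. The shared sign over the 9 populations is therefore no test. Over all mesenchyme it went from 15.1 and 22.9 CPM, from 427 and 687 UMIs, to 5.72 and 2.995 CPM, from 152 and 95 UMIs (log2 fold change -2.20, SE 0.33, adjusted p = 0.037). That call was lost without DTA- 1 (adjusted p = 0.068) or DTA- 2 (0.076).

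In the *Sostdc1*/*Wnt16* mesenchyme, 40 and 87 *Smoc1* UMIs of the controls stood against 2 and 0 of DTA+ (adjusted p = 0.00080). The ratio of controls to ablated per UMI sequenced was 54.1 (95% exact counting interval 14.7 to 451). The *Kera*/*Nefl* mesenchyme held 15 and 24 UMIs against 1 and 0 (adjusted p = 0.018, ratio 38.5, counting interval 6.51 to 1559), a call lost without DTA- 2 (adjusted p = 0.12), DTA+ 1 (0.081) or DTA+ 2 (0.13). These intervals cover counting error only.

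Falls passed in 3 other populations. Periurethra-like cells went from 28.3 and 35.0 CPM to 6.83 and 3.04 CPM, from 11.7% and 12.3% of cells to 2.27% and 1.15% (log2 fold change -2.83, SE 0.34, adjusted p = 0.0032). The *Thbd*/*Ptgis* mesenchyme went from 18.4 and 19.3 CPM to 5.37 and 2.51 CPM (log2 fold change -2.33, SE 0.41, adjusted p = 0.00061). Osteogenic-like cells went from 6.53 and 19.99 CPM to 1.98 and 0.938 CPM (log2 fold change -3.21, SE 0.65, adjusted p = 0.015), a call lost without DTA- 2 (adjusted p = 0.21) or DTA+ 2 (0.23).

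The 3 *Akap12* clusters together held the highest *Smoc1* levels of the controls, 59.7 and 52.2 CPM in 23.3% and 19.6% of cells, and 1.74 and 4.78 CPM in DTA+ (log2 fold change -4.09, SE 0.33, adjusted p = 0.00039). The subdermal prepuce-like cluster had 62 and 210 control UMIs and not 1 among the 32 and 15 ablated cells, at least 4.55-fold lower when 3 UMIs over both ablated libraries are taken as the floor. In the *Ccn3*/*Akap12* cluster, the first control held 44 UMIs in 90 cells, at 99.5 CPM, and the ablated libraries 2 UMIs in 272 cells and 21 UMIs in 645 cells, at 1.80 and 7.08 CPM. The third cluster had 1 and 7 control cells with 0 UMIs, and 4 and 0 UMIs in the ablated libraries. *Sostdc1* fell in the same sum, from 346 and 387 CPM to 177 and 128 CPM (log2 fold change -1.35, SE 0.19, adjusted p = 0.0048). In *Irx1*/*Col7a1* mesenchyme *Smoc1* stood at 23.5 and 37.9 CPM in the controls and 17.3 and 9.60 CPM in DTA+ (log2 fold change -1.18, SE 0.31, adjusted p = 0.15).

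**Figure D4:**
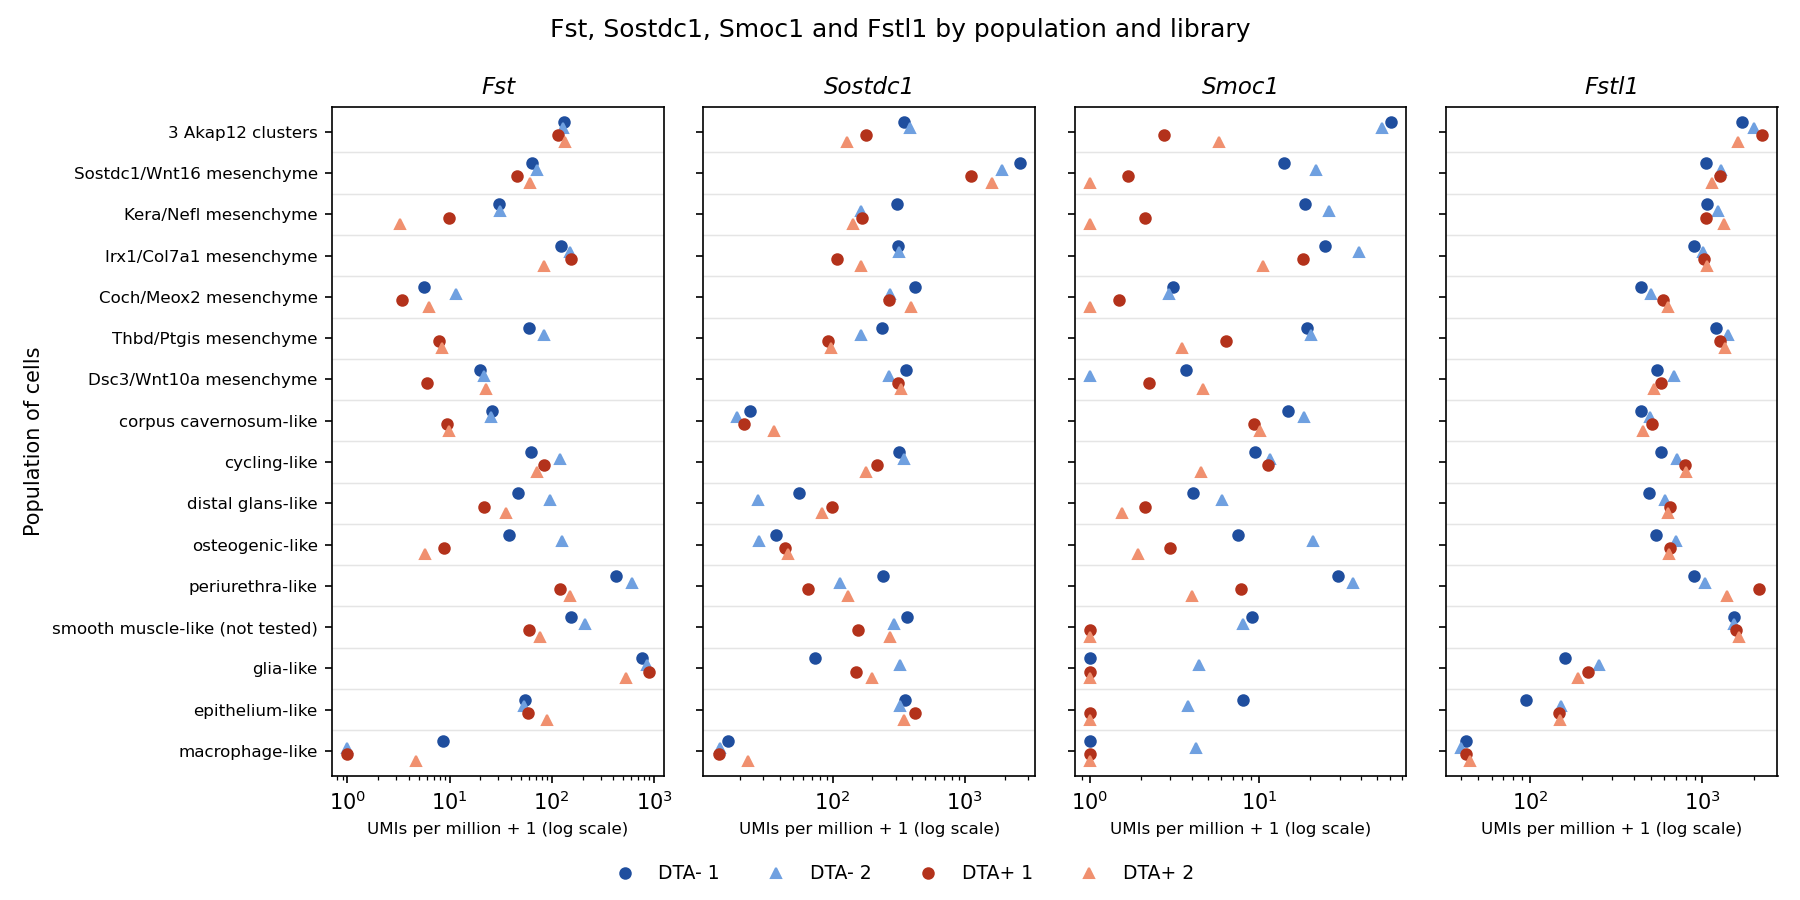
*Fst*, *Sostdc1*, *Smoc1* and *Fstl1* in CPM plus 1 (log axis) for each library, with populations and symbols as in the plot of *Grem1*, *Nog*, *Chrdl1* and *Bmper*. *Fst* in periurethra-like cells lies at 427 and 612 in DTA- and 119 and 149 in DTA+ but overlaps in glia-like cells, and *Smoc1* lies at 0 or close to it in the DTA+ libraries of several populations.

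Whether a gene responded differently in 2 kinds of cells was tested with an interaction term between genotype and population, blocked by library, for the 10 pairs of the 5 named mesenchymal populations. Of 87 tests of antagonists 22 passed (25.3%), where 1.38% of all genes did. The pairs share populations and libraries, so the 87 tests are not separate observations. The members were also chosen with earlier results of these data known. Of those 22, 9 passed in each of the 4 fits that left out 1 library. *Bmper* differed between corpus cavernosum-like cells, where it was higher in DTA+, and each of the other 4 populations, by -3.17 (cycling-like), -1.88 (distal glans-like), -1.83 (osteogenic-like) and -4.01 (periurethra-like) on the log2 scale, with SEs of 0.48, 0.33, 0.30 and 0.70 and adjusted p from 0.00062 to 0.0063. In DTA+ the periurethra-like value rests on 1 and 2 *Bmper* UMIs, in a population where the gene had too few counts for its own test. The cycling-like value rests on 7 and 2 UMIs in DTA+, and the makeup of those cells differed between libraries.

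*Grem1* differed between the corpus cavernosum-like and the periurethra-like cells by 3.13 (SE 0.47, adjusted p = 0.00048), a value that rests largely on DTA+ 1. *Sostdc1* differed between cycling-like and distal glans-like cells by 1.89 (SE 0.25, adjusted p = 0.0026) and between distal glans-like and periurethra-like cells by -2.004 (SE 0.33, adjusted p = 0.019). For *Fst*, which fell in 4 of the 5, the size of the fall differed, and against cycling-like cells, where it was not called, it was greater by 3.37 in osteogenic-like cells (SE 0.32, adjusted p = 0.00030) and by 1.76 in periurethra-like cells (SE 0.21, adjusted p = 0.0015).

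**Figure D5:**
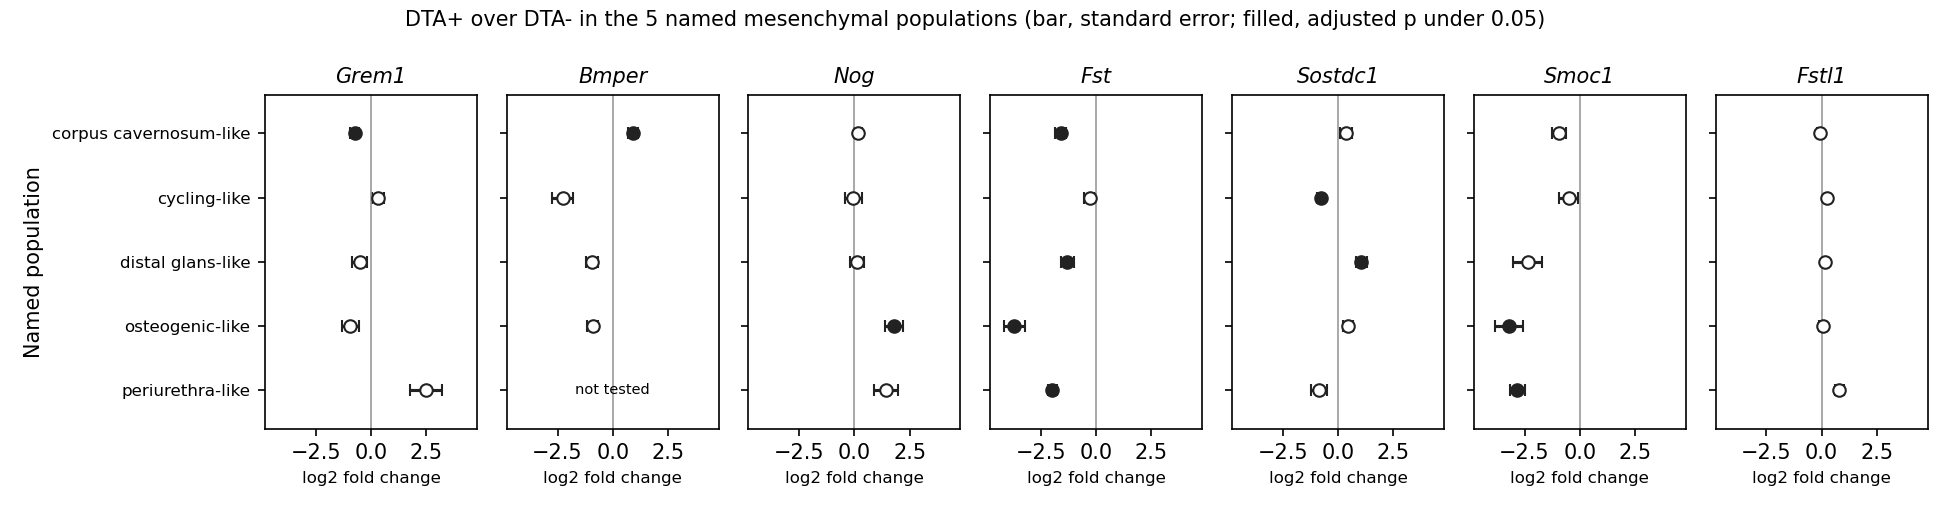
Log2 fold change (DTA+ over DTA-) with its SE for 7 antagonist genes in the 5 named mesenchymal populations, filled where the adjusted p was under 0.05. *Bmper* lies right of 0 in corpus cavernosum-like cells and left of 0 in the other 3 populations tested, *Fst* lies left of 0 in all 5, and *Sostdc1* lies right of 0 in distal glans-like and left of 0 in cycling-like cells.

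The other genes of the pathway, 63 in all, were looked at by role. Over all mesenchyme 1 of the 58 tested passed, where 1.21% of all genes did. It was the BMP ligand gene *Gdf6*, which was higher in DTA+ (log2 fold change 1.27, SE 0.18, adjusted p = 0.031). None of the 10 receptor, 3 co-receptor, 8 Smad or 8 BMP target genes passed there by edgeR's quasi-likelihood test. Within corpus cavernosum-like cells 8 of 46 rose and 1 fell, where 8.95% of all genes passed, and in periurethra-like cells 3 of 46 rose and 2 fell (3.13% of all genes). In osteogenic-like cells 3 of 44 rose and 0 fell (2.11%), and in distal glans-like cells 2 of 47 rose and 2 fell (4.55%).

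*Inhba*, which encodes the subunit of activin A, the main ligand of follistatin, rose in 3 of these populations. In periurethra-like cells, after TMM scaling, it went from 30.03 and 20.6 to 107 and 72.9 CPM (log2 fold change 1.80, SE 0.25, adjusted p = 0.0050). In corpus cavernosum-like cells the values were 65.5 and 59.8 against 152 and 167 CPM (log2 fold change 1.35, adjusted p = 2.5e-05), and in distal glans-like cells 287 and 233 against 410 and 466 CPM (0.75, adjusted p = 0.0077). *Fst* fell in the same 3 populations, and also in osteogenic-like cells and the *Thbd*/*Ptgis* mesenchyme. Of the activin family ligand genes tested, 0 of 2 passed in osteogenic-like cells and 1 of 3 rose in the *Thbd*/*Ptgis* mesenchyme. In the *Coch*/*Meox2* mesenchyme 1 of 4 rose, and *Fst* was not called (edgeR adjusted p = 0.24). Whether the changes of ligand and antagonist are linked was not tested.

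Of the BMP ligands, *Gdf10* fell in periurethra-like (log2 fold change -2.43, adjusted p = 0.020) and cycling-like cells (-1.51, adjusted p = 0.010), *Bmp5* rose in corpus cavernosum-like (0.89, adjusted p = 0.032) and osteogenic-like cells (0.83, adjusted p = 0.049), and in distal glans-like cells *Bmp3* rose (0.82, adjusted p = 0.010) and *Bmp2* fell (-0.70, adjusted p = 0.023). Of 8 direct targets of BMP signaling tested, 3 rose in the *Coch*/*Meox2* mesenchyme, where 9.32% of all genes passed. In osteogenic-like cells 2 of 8 rose, in corpus cavernosum-like cells 1 of 8 rose, and in periurethra-like cells 1 of 8 fell. In the *Thbd*/*Ptgis*, *Sostdc1*/*Wnt16*, *Irx1*/*Col7a1* and *Dsc3*/*Wnt10a* mesenchyme 0 of 7 passed. It was 0 of 6 in the *Kera*/*Nefl* mesenchyme and 0 of 8 in distal glans-like and in cycling-like cells. *Id1* (log2 fold change 0.86, adjusted p = 0.036) and *Msx2* (0.74, adjusted p = 0.040) rose in osteogenic-like cells, where *Fst* and *Smoc1* fell and *Nog* rose, and *Id4* fell in periurethra-like cells (-1.002, adjusted p = 0.044). Of other extracellular modulators, *Smoc2*, the paralog of *Smoc1*, fell in corpus cavernosum-like cells, from 149 and 188 to 50.4 and 44.5 CPM after TMM scaling (log2 fold change -1.83, SE 0.18, adjusted p = 1.5e-06). *Nbl1*, a DAN family antagonist, rose there (1.26, adjusted p = 0.0024) and in periurethra-like cells (0.65, adjusted p = 0.043).

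Across the 20 populations with at least 20 cells in both controls, the gene with the level pattern most like that of *Grem1* among 10391 genes was *Ptchd4* (Pearson r of mean log2(CPM + 10) 0.91), and *Slc4a4* (0.81) was also among the nearest. For *Fst* the nearest were *Gpt2* (0.87), *Zfp536* (0.85) and *Fstl3* (0.82), which encodes another follistatin-type activin binder. *Nog* lay nearest to *Col2a1* (0.77), *Krt8* (0.76) and *Kcnk1* (0.73), *Chrd* to *Capn6* (0.92), *Olfml1* (0.92) and *Ikzf4* (0.91), and *Bmper* to *Grin3a* (0.81), *Tafa1* (0.79) and *Enpep* (0.78). *Sostdc1* lay nearest to *Col14a1* (0.88), *Glrb* (0.80) and *Sorcs2* (0.79), *Smoc1* to *Ogn* (0.87), *Arsj* (0.85) and *Medag* (0.84), and *Fstl1* to *Fbn1* (0.97), *Ccdc102a* (0.94) and *Aebp1* (0.94). All points come from the same 2 control libraries and share their depth. Between members the highest r was 0.70, for *Chrd* and *Fstl1*, followed by 0.68 for *Fstl1* and *Smoc1* and 0.59 for *Chrd* and *Smoc1*. The lowest was -0.27, for *Bmper* and *Sostdc1*, and that of *Grem1* with *Fst* was 0.30. *Chrdl1* was not compared.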

How the data were processed

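Per the labels and the methods, the authors aligned 10x 3' libraries to mm10 with Cell Ranger (version 4.0.0 in the submitters' processing notes) and deposited raw UMI counts for each gene and cell. The number of columns from other samples was 0.

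A cell was used if it had over 1000 and under 7500 UMIs, with mitochondrial and *Hba* shares up to 25% and an *Hbb* share up to 50%. Clustering was run in Seurat 5.3.0 (R 4.3.3) on 2000 variable genes, leaving out the 9 members, with 30 components and resolution 0.8. Cluster names required 3 markers of a class, each in 5% or more of the cells and at a log2 fold of 0.8 or more. Scrublet (scanpy 1.11.5) called 1, 0, 1 and 1 cells, too few to have worked, and doublets were not removed. UMIs were added up by library and population, for populations of 20 or more cells in every library, and edgeR 4.0.16 was applied (TMM factors, filterByExpr, then the quasi-likelihood test). The SE is the fold change divided by the root of F. The fits were tested on simulated data. Alternatives were DESeq2 1.42.0, a likelihood ratio test, RLE factors, no filter, the replicate number as a block, leaving out each library, thinning to 1000 UMIs, no upper UMI limit, leaving out high doublet scores, resolutions 0.4 and 1.2, and other clustering genes.

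The members and lists were chosen with earlier results of these data known, and the *Akap12* sum after the clusters were seen. All members are named. Of the pathway list, genes called in the mesenchyme are named, and in each named mesenchymal population up to 4 called genes with a mean of 20 CPM or more and the largest change. For each member reaching 20 CPM the 3 genes most alike in level pattern are named, except 1 that is not reported here. Gene coordinates are from the GENCODE annotation of GRCm38, promoters from RefSeq (GRCm38.p6).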

Additional observations from a re-analysis of the deposited data

Results flagged for a closer look

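In the tests of whether the response to the ablation differed between 2 named mesenchymal populations, 22 differences passed (edgeR's quasi-likelihood test, adjusted p under 0.05), given here as the log2 fold change in the second population minus that in the first. For *Grem1* they were 1.08 (corpus cavernosum-like, cycling-like), 3.13 (corpus cavernosum-like, periurethra-like) and 3.16 (osteogenic-like, periurethra-like). For *Nog* it was 1.70 (corpus cavernosum-like, osteogenic-like). For *Bmper* they were -3.17, -1.88, -1.83 and -4.01 for cycling-like, distal glans-like, osteogenic-like and periurethra-like cells, each against corpus cavernosum-like cells.

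For *Fst* they were 1.36 (corpus cavernosum-like, cycling-like), -3.37 (cycling-like, osteogenic-like), -1.76 (cycling-like, periurethra-like) and -2.41 (distal glans-like, osteogenic-like). For *Fstl1* they were 0.86 (corpus cavernosum-like, periurethra-like) and 0.73 (osteogenic-like, periurethra-like). For *Sostdc1* they were -1.14 (corpus cavernosum-like, cycling-like), -1.23 (corpus cavernosum-like, periurethra-like), 1.89 (cycling-like, distal glans-like), 1.28 (cycling-like, osteogenic-like), -2.004 (distal glans-like, periurethra-like) and -1.33 (osteogenic-like, periurethra-like). For *Smoc1* they were -1.89 (corpus cavernosum-like, periurethra-like) and -2.21 (cycling-like, periurethra-like). Of these 22, 9 kept the call whichever library was left out.

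The reporter *tdTomato*, which no comparison used, gave 3579 UMIs in DTA+ 1 and 3140 in DTA+ 2 and 0 in both controls.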

How the results depend on the processing

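The 26 called results of single genes had 397 values under alternatives, and 349 of these kept direction and call while 48 kept the direction only. Over all cells the 55 genes called became 657 with the likelihood ratio test, 543 with DESeq2, 658 without a filter, 20 without an upper UMI limit, 25 without the highest doublet scores and 88 to 263 leaving out 1 library. Over the mesenchyme the 185 became 943, 614 and 1341 with the first 3 of these, 283 after thinning and 23 to 462 leaving out 1 library. Without DTA- 1, 27.1% of calls over all cells were higher in DTA+, against 47.3% with it, and 24.2% against 49.2% over the mesenchyme. The 21 called combinations of gene and population became 33 with the likelihood ratio test, 14 with DESeq2 (which gave some no adjusted p), 35 without a filter and 13 of 54 after thinning, and the 22 interaction calls became 34 without a filter. In uncalled genes the sign turned on leaving out 1 library. Over the 4 such fits, *Chrd* ran from -0.071 to 0.013 over all cells (0.0041 without DTA- 2) and from -0.057 to 0.017 over the mesenchyme. *Chrdl1* ran from -0.50 to 0.68 and from -0.50 to 0.65, and *Fstl1* from -0.099 to 0.28 (-0.024 without DTA+ 1) and from -0.087 to 0.30 (-0.031 without DTA+ 1). The cause was not tested.

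The replicate numbers did not pair the libraries, with a correlation of deviations of -0.40 over 15264 genes. With the replicate number as a block, 334 genes were called over all cells, 386 over the mesenchyme and 28 combinations of an antagonist and a population. With the crossed pairing, added after the data were seen, the replicate block gave 1667, 2117 and 32.

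Sparse genes limit these results: 72 of 162 combinations had too few counts to test.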
